A study of Bos taurus with 32 samples.

Results

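The comparison of high against controlled energy feeding was made here in liver taken 9 days after calving, from 12 of the 32 arrays of the study. The groups were set by 6 weeks of feeding before the predicted calving date: 6 Ayrshire cows had received a controlled-energy diet (CON) and 6 other cows a high-energy diet (HIGH). The 12 arrays were chosen by diet and day alone, one per cow, and every one of the 24016 probe sets that are no array controls was tested. The remaining 20 arrays came from the same 12 cows at 8 d before predicted calving (-8 d; 10 arrays) and at 1 d after calving (10 arrays). They entered the fit so that all groups shared one estimate of the spread. All cows had calved by the 9 d biopsy, and what either group was fed after calving is not given in the sources used here. The labels name a separate cow for each of the 12 arrays at 9 d, so the spread below is a spread between animals. The number of cows with arrays is below the number that the design text allocates to the diets.

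A cow that starts to give milk needs more energy than it eats. Its liver makes nearly all of the glucose for milk from propionate, lactate, glycerol and amino acids, because little glucose is absorbed from the rumen. It also takes up fatty acids released from body fat, which it burns in mitochondria and peroxisomes, turns into ketone bodies, or stores as triglyceride, since bovine liver exports little fat as lipoprotein. Overfeeding energy before calving is studied because it can alter fat mobilisation, insulin response and inflammation after calving.

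Levels are log2 values made with RMA, so a difference of 1 is a doubling, and differences are HIGH minus CON. RMA gives every array one common distribution, so a level is read against the other probe sets of its array. Array medians at 9 d lay between 5.86 and 5.91. Of the probe sets, 13292 carried a single gene symbol and stood for 9155 genes. Each gene is given by its brightest probe set. Hepatocyte markers were bright on every array: the mean of 18 such genes, with albumin, fibrinogen and transferrin among them, was 13.08 to 13.33 in CON and 13.10 to 13.24 in HIGH. The label of liver thus matched its defining markers.

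One array stood apart. That of CON replicate 6 held high levels of skeletal muscle genes, from a list of 39 symbols, 31 of them measured, that was drawn up after the data had been seen. The mean level of the 31 genes was 8.05 on this array, 5.57 on that of HIGH replicate 2 and 5.09 to 5.18 on the other 10 arrays at 9 d. The arrays of the other days gave 4.99 to 5.25. Of the 31 genes, 26 were highest in CON replicate 6, and 20 of them exceeded the other 11 arrays by at least 1. MYH1, a fast myosin heavy chain, read 11.49 in CON replicate 6, 6.73 in HIGH replicate 2 and 3.44 to 3.94 on the other 10 arrays. The regulatory light chain MYL2 read 11.06 in CON replicate 6 against 4.59 to 5.41 elsewhere, and the thin filament protein TNNC1 read 10.72 against 4.64 to 5.61. Over all 9155 genes, 11 were at least 3 above the other 11 arrays in CON replicate 6, and all 11 were on the muscle list. Hepatocyte markers were as bright on this array (13.24) as on the others. In the diet comparison, 28 of 31 muscle genes had lower HIGH than CON means, with a median difference of -0.40. Without CON replicate 6 that median was 0.05, and 21 of 31 were higher in HIGH. For several lists, results are therefore also given without this array, or without it and HIGH replicate 2. Most single genes are given with these arrays included, and some of them moved too. Without CON replicate 6, the difference went from -1.17 to -1.40 for ANXA13, from 0.40 to 0.52 for A2M and from 0.37 to 0.26 for IGFBP6.

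**Figure D1:**
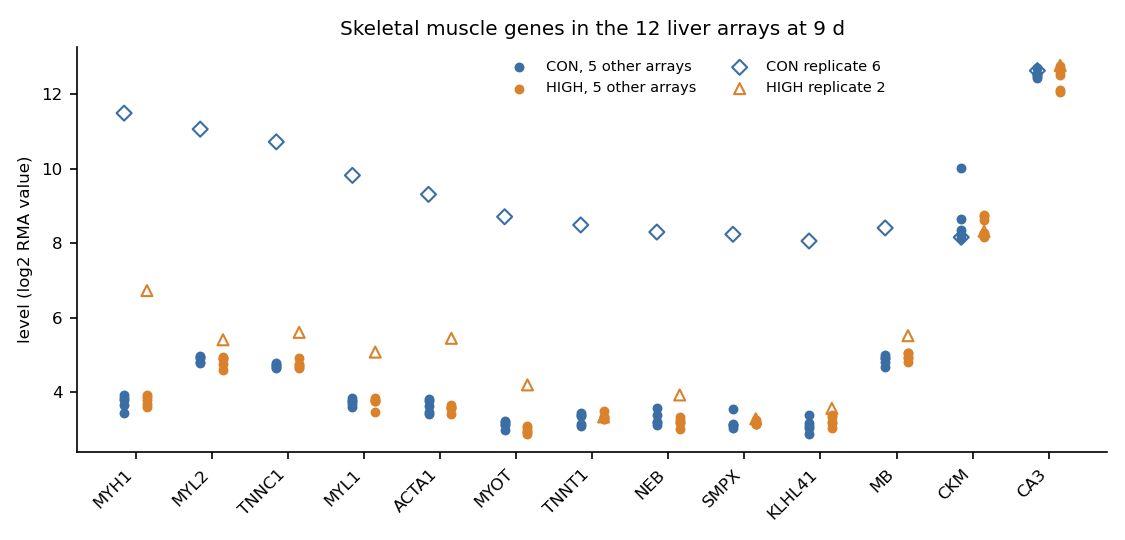
Levels (log2 RMA values, y axis) of 13 skeletal muscle genes (x axis) on the 12 liver arrays at 9 d, one point per cow, with open diamonds for CON replicate 6 and open triangles for HIGH replicate 2. CON replicate 6 lies far above all other arrays for genes such as MYH1 (11.49) and MYL2 (11.06) but not for CKM or CA3, and HIGH replicate 2 is second for MYH1 (6.73) and ACTA1 (5.45).

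The diets left no liver gene past the threshold at 9 d. With limma, 0 of 24016 probe sets (0%) had an adjusted p under 0.05, and the smallest adjusted p was 0.998. At an unadjusted p under 0.05 there were 813 probe sets (3.39%), 452 higher and 361 lower in HIGH, where 5% of tests would fall under this limit with no difference anywhere. With array quality weights there were 1243 (5.18%), and still 0 with an adjusted p under 0.05. Counted over genes, 278 of 9155 (3.04%) had an unadjusted limma p under 0.05, 194 higher (2.12%) and 84 lower (0.918%) in HIGH. Because no adjusted p was under 0.998, none is repeated for single genes below.

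The size of the differences can be bounded. The 95% interval of the diet difference lay inside a 1.5-fold change either way for 8623 of 9155 genes (94.2%) and inside a 2-fold change for 9022 (98.5%). The median interval reached 0.19 to each side, or 1.14-fold. More genes had a higher than a lower mean in HIGH (5256 against 3834, or 57.4% higher), but the median difference was 0.02 and the share was 55.9% when each array was centred on its median. Point differences of at least 1.5-fold occurred in 10 genes with higher and 23 genes with lower HIGH means. Of these 23, 12 were skeletal muscle genes; without CON replicate 6 the numbers were 13 and 22.

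Cows of the same diet differed from each other as much as cows of different diets. The root mean square difference over all 24016 probe sets was 0.331 between pairs of CON cows (15 pairs), 0.297 between pairs of HIGH cows (15 pairs) and 0.311 between CON and HIGH cows (36 pairs). Leaving out CON replicate 6 gave 0.321 within CON and 0.306 between diets. Diet accounted for 6.95% of the total sum of squares over the 12 arrays, and for a median of 4.35% per gene. Any split of 12 arrays into groups takes up some share of this sum, so these shares by themselves show no effect of diet. The median SD among cows was 0.147 in CON and 0.142 in HIGH.

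Most genes of glucose production differed little between the groups. PC, pyruvate carboxylase, which makes oxaloacetate from pyruvate, ran from 11.03 to 11.32 (median 11.15) in the CON cows and 10.83 to 11.42 (median 11.18) in the HIGH cows. The HIGH range enclosed the CON range, and the difference was -0.02 (95% interval -0.36 to 0.32). PCK1, the cytosolic phosphoenolpyruvate carboxykinase, was among the brightest genes, at 13.89 to 14.14 over all 12 cows, with a difference of -0.05 (95% interval -0.18 to 0.07). Its mitochondrial counterpart PCK2 differed by 0.11 (95% interval -0.29 to 0.52). G6PC1, the last step of glucose release, ran from 11.72 to 12.15 (median 11.81) in the CON cows and 11.65 to 11.82 (median 11.71) in the HIGH cows. Of the HIGH cows, 4 read below every CON cow and the other 2 within the CON range, and the difference was -0.15 (95% interval -0.45 to 0.15). A second, dimmer probe set of G6PC1 gave -0.43. PPARGC1A, a coactivator that raises gluconeogenic genes in fasting, differed by -0.02 (95% interval -0.41 to 0.37), and the glucose transporter SLC2A2 by 0.01 (95% interval -0.33 to 0.35). Of the list of 23 gluconeogenesis genes, 10 were higher and 12 lower in HIGH, with a median of -0.02 beside 0.02 over all genes, and none had an unadjusted limma p under 0.05. For 18 of the 23 the 95% interval lay inside 1.5-fold. FBP2, which varied widely among cows, had the largest difference of the list, -0.42 (95% interval -2.13 to 1.30). HNF4A, a transcription factor that maintains hepatocyte identity, had one of the smallest p of the list. It ran from 6.90 to 7.69 (median 7.46) in the CON cows and 6.48 to 7.27 (median 7.09) in the HIGH cows, so the groups overlapped, and it differed by -0.35 (95% interval -0.72 to 0.02). LDHA, which interconverts lactate and pyruvate, differed by -0.34 (95% interval -0.81 to 0.12) in its brightest probe set and by 0.03 and 0.01 in the other two.

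Genes that burn fatty acids or answer to PPAR-alpha, the nuclear receptor for fatty acids, also differed little between the diets. CPT2, which hands long-chain acyl groups over inside mitochondria, differed by 0.06 (95% interval -0.10 to 0.22), and ACADVL, the first dehydrogenase for very long chains, by 0.11 (95% interval -0.10 to 0.32). PDK4, a kinase that shuts pyruvate out of the citric acid cycle in fasting, ran from 9.67 to 11.06 (median 10.45) in the CON cows and 9.62 to 10.34 (median 10.04) in the HIGH cows. Of the CON cows, 3 read 10.90 or more, above every HIGH cow, and the other 3 lay within the HIGH range, and the difference was -0.36 (95% interval -0.99 to 0.27), or -0.24 without CON replicate 4. ANGPTL4, a secreted inhibitor of lipoprotein lipase, ran from 7.49 to 8.83 (median 7.85) in the CON cows and 7.32 to 8.78 (median 7.98) in the HIGH cows, with a difference of -0.01 (95% interval -0.54 to 0.52). PPARA itself differed by -0.05 (95% interval -0.32 to 0.22), and VNN1, a pantetheinase that PPAR-alpha induces, by -0.07 (95% interval -0.75 to 0.62). Of 22 fatty acid oxidation genes 14 were higher in HIGH (median 0.02), and of 18 PPAR-alpha targets 10 were (median 0.01). Of the 22 oxidation genes, 1 had an unadjusted limma p under 0.05, beside 3.04% of all genes. ACADS, the dehydrogenase for short chains, ran from 10.69 to 11.05 (median 10.90) in the CON cows and 10.80 to 11.25 (median 11.08) in the HIGH cows, and its difference was 0.18 (95% interval 0.03 to 0.33). FABP3, a fatty acid carrier of heart and muscle on the PPAR-alpha list, differed by -0.42 (95% interval -0.77 to -0.07). Its highest CON values were those of replicates 2 (5.73) and 6 (5.46), the latter from the array with high muscle genes. The other CON cows read 4.30 to 4.80 and the HIGH cows 4.32 to 4.66. Without CON replicate 2 the FABP3 difference was -0.26. Of the ketogenesis list 3 genes were measured. ACAT1, which condenses acetyl-CoA, read 12.97 to 13.04 (median 12.99) in the CON cows and 12.95 to 13.07 (median 13.01) in the HIGH cows, and BDH2 and BDH1 differed by 0.23 and -0.04. The BDH2 value was 0.13 without CON replicate 2 and 0.37 without CON replicate 5. BDH1 was dim, at 3.46 to 3.92 in the CON cows and 3.51 to 3.73 in the HIGH cows.

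The list of fatty acid synthesis genes had the highest median of the 28 pathway lists when all arrays were used. In it 12 of 16 measured members had higher HIGH means, with a median difference of 0.14 beside 0.02 over all genes, but none had an unadjusted limma p under 0.05. The median was 0.20 without CON replicate 6 and 0.08 without that array and HIGH replicate 2, where the cell cycle list was higher (0.14). FASN, fatty acid synthase, ran from 7.71 to 9.33 (median 8.71) in the CON cows and 8.43 to 9.54 (median 8.81) in the HIGH cows. The groups overlapped almost throughout, apart from 1 CON cow below all others, and the difference was 0.19 (95% interval -0.31 to 0.69). SREBF1, the insulin-responsive regulator of this pathway, ran from 8.93 to 9.72 (median 9.38) in the CON cows and 9.16 to 9.97 (median 9.57) in the HIGH cows. Of the CON cows, 3 lay below every HIGH cow and the other 3 within the HIGH range, with a difference of 0.27 (95% interval -0.21 to 0.75). Its other probe sets gave 0.29, 0.16 and, for the dimmest, -0.08. ACACA, acetyl-CoA carboxylase, differed by 0.03 (95% interval -0.16 to 0.22), SCD, the delta-9 desaturase, by 0.15 (95% interval -0.60 to 0.90) and FADS2, the delta-6 desaturase, by 0.20 (95% interval -0.57 to 0.96). PGD, which supplies NADPH, had the smallest p of the list and ran from 8.41 to 8.86 (median 8.80) in the CON cows and 8.76 to 9.25 (median 8.97) in the HIGH cows. Of the HIGH cows, 4 lay above every CON cow and 2 within the CON range, and the difference was 0.25 (95% interval -0.02 to 0.51). MLXIPL, the carbohydrate-responsive regulator, differed by 0.12 (95% interval -0.08 to 0.32).

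Triglyceride assembly and export genes stayed close together. GPAM, which starts glycerolipid synthesis, differed by -0.01 (95% interval -0.26 to 0.24), and the acyltransferases DGAT1 and DGAT2 by 0.12 (95% interval -0.08 to 0.32) and -0.12 (95% interval -0.50 to 0.25). MTTP, which loads lipid onto apolipoprotein B, differed by 0.05 (95% interval -0.18 to 0.28), APOB by -0.05 (95% interval -0.22 to 0.12), and the lipid droplet protein PLIN2 by 0.02 (95% interval -0.41 to 0.45). Of the list 18 of 25 measured members had higher HIGH means (median 0.05), 1 with an unadjusted limma p under 0.05 and 1 such member in the other direction. Over all genes, 2.12% were higher and 0.918% lower with such a p. APOE, an apolipoprotein that leads remnants back to the liver, ran from 13.34 to 13.61 (median 13.49) in the CON cows and 13.51 to 13.72 (median 13.60) in the HIGH cows and differed by 0.12 (95% interval 0.01 to 0.23). LIPE, hormone-sensitive lipase, was 6.05 ± 0.13 in the CON cows and 5.86 ± 0.14 in the HIGH cows (mean ± SD), with HIGH replicate 1 below the rest, and differed by -0.19 (95% interval -0.37 to -0.01). The other, dimmer probe sets of LIPE gave 0.017, -0.115 and 0.05. Cholesterol synthesis genes split evenly, 8 higher and 8 lower (median 0.00), with HMGCS1, which makes the HMG-CoA of sterol synthesis, at 0.25 (95% interval -0.33 to 0.83), or 0.099 without CON replicate 5. A dimmer probe set of HMGCS1 gave -0.10. CYP7A1, the rate-limiting enzyme of bile acid synthesis, differed by -0.26 (95% interval -0.99 to 0.48), or by -0.12 without HIGH replicate 1, and SLC27A5, which activates bile acids and very long chain fatty acids, by 0.22 (95% interval 0.03 to 0.41).

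**Figure D2:**
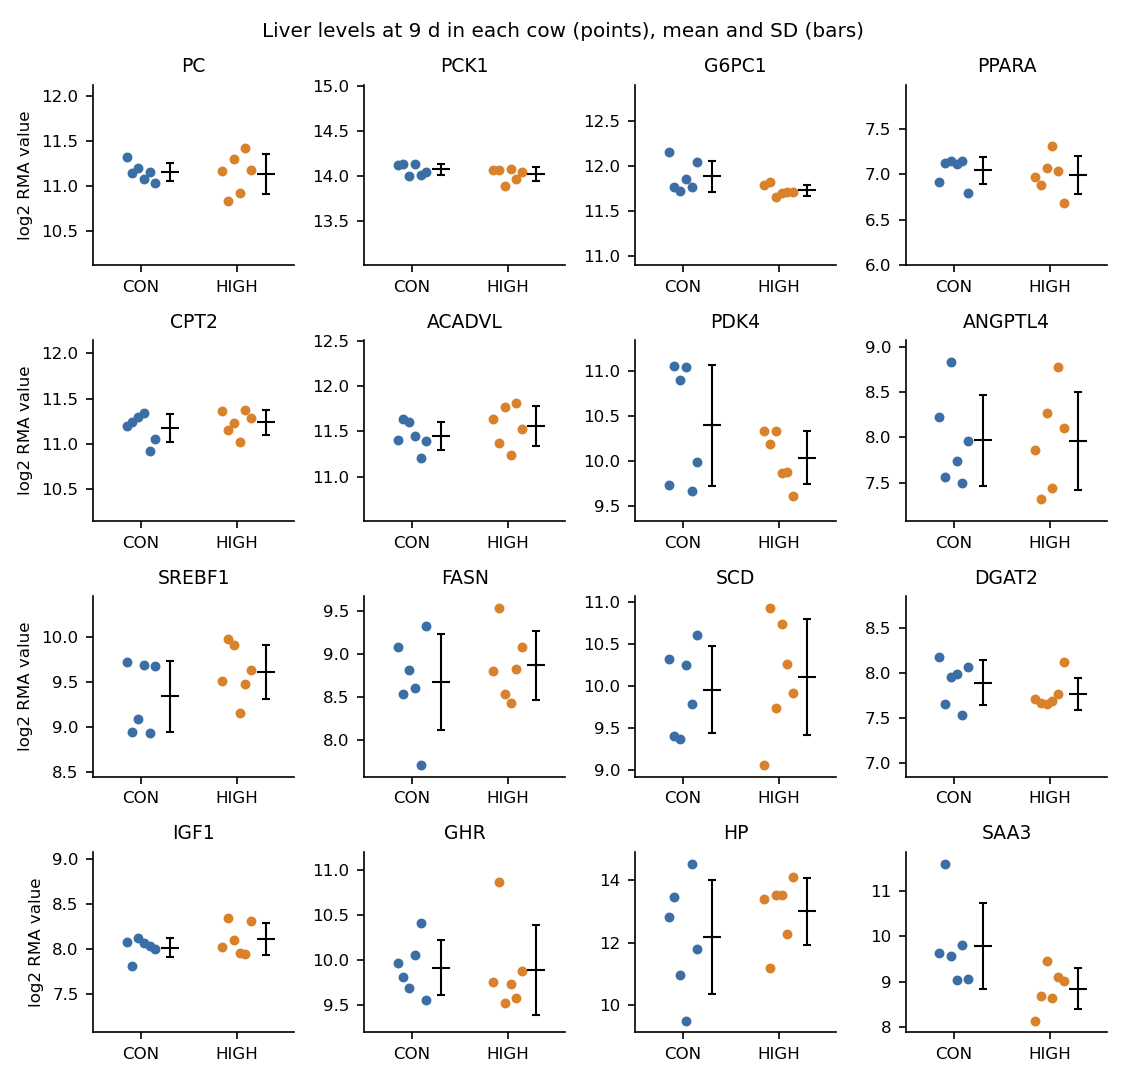
Levels (log2 RMA values, y axis) of 16 genes at 9 d, with one point per cow in the CON (blue) and HIGH (orange) groups and bars for the mean and SD of the 6 cows. Each panel spans at least 2 log2 units, and HP and SAA3 more. The groups overlap in every panel; the CON cows form 2 sets for PDK4, and HP varies from 9.49 to 14.54.

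The growth hormone axis, which uncouples in early lactation when the liver loses growth hormone receptors, was tested by its main members. GHR, the receptor, ran from 9.56 to 10.41 (median 9.89) in the CON cows and 9.53 to 10.87 (median 9.75) in the HIGH cows. HIGH replicate 2 lay above all others, and the difference was -0.02 (95% interval -0.51 to 0.46). IGF1, the hormone the receptor induces, ran from 7.81 to 8.12 (median 8.05) in the CON cows and 7.95 to 8.35 (median 8.06) in the HIGH cows and differed by 0.10 (95% interval -0.15 to 0.34); its 3 other probe sets gave 0.23, 0.23 and 0.03. SOCS2, a feedback inhibitor of the receptor, differed by -0.14 (95% interval -0.57 to 0.30). STAT5B, which carries the receptor's signal to the nucleus, was one of the few genes without overlap. It ran from 6.02 to 6.28 (median 6.15) in the CON cows and 6.35 to 6.48 (median 6.42) in the HIGH cows, a difference of 0.28 (95% interval 0.08 to 0.47) with an unadjusted limma p of 0.0065. Among binding proteins, IGFBP3 differed by 0.33 (95% interval -0.01 to 0.66), IGFBP6 by 0.37 (95% interval -0.02 to 0.76), IGFBP1 by -0.12 (95% interval -0.87 to 0.62) and IGFBP2 by -0.11 (95% interval -0.49 to 0.28). A second probe set of IGFBP3, nearly as bright as the first, gave 0.175. Of this list 10 of 16 measured members had higher HIGH means (median 0.06), and 8 did without CON replicate 6. INSR, the insulin receptor, differed by -0.15 (95% interval -0.62 to 0.33) in its brightest probe set, and its 4 other probe sets ran from -0.07 to 0.14.

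Some acute phase genes, such as HP, SAA3 and LBP, varied widely among cows within each diet, while others, such as the complement component C3 (SD 0.03 in CON and 0.06 in HIGH), did not. Of the 26 measured members, 16 had an interval inside 1.5-fold. HP, haptoglobin, the main acute phase protein of cattle, ran from 9.49 to 14.54 (median 12.30) in the CON cows and 11.17 to 14.10 (median 13.47) in the HIGH cows. Both groups held cows at low and at high levels, and the difference of 0.83 had an interval of -1.03 to 2.68; it was 0.29 without CON replicate 4 and 1.31 without CON replicate 5. SAA3, a serum amyloid A made in inflammation, ran from 9.03 to 11.61 (median 9.60) in the CON cows and 8.14 to 9.46 (median 8.86) in the HIGH cows. CON replicate 2 lay far above the other 11 cows, 4 HIGH cows read below every CON cow, and the difference was -0.94 (95% interval -1.80 to -0.08) with an unadjusted limma p of 0.0341. Without CON replicate 2 it was -0.59. SAA4 differed by -0.53 (95% interval -1.03 to -0.03), and by -0.31 without CON replicate 5, whereas LBP, the lipopolysaccharide binding protein, differed by 0.11 (95% interval -0.61 to 0.84) and A2M, a protease trap, by 0.40 (95% interval -0.05 to 0.84). Of the list, 9 of 26 measured members had higher HIGH means, and 17 had lower ones, with a median of -0.02. Of the lower ones 2, SAA3 and SAA4, had an unadjusted limma p under 0.05. Over all genes, 0.918% were lower with such a p. Among interferon-stimulated genes 15 of 25 had higher HIGH means (median 0.02). CON replicate 3 alone was high for IFI6 (11.16, against 8.32 at most in HIGH) and IFI27 (11.62 against 10.38). Without this cow the difference went from -0.33 to 0.27 for IFI6 and from 0.32 to 0.79 for IFI27, which was 0.10 without CON replicate 1. The mean level of neutrophil markers was 5.56 to 6.02 in CON and 5.41 to 5.96 in HIGH, and that of Kupffer cell and macrophage markers 9.15 to 9.87 in CON and 9.18 to 9.79 in HIGH, so the groups overlapped in both.

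Further lists had a larger share of higher HIGH means than all genes, of which 57.4% were higher in HIGH. Of cell cycle genes 26 of 33 measured members were higher in HIGH, with a median of 0.11, none with an unadjusted limma p under 0.05. Without CON replicate 6 there were 21 of 33 and a median of 0.07, and without HIGH replicate 2 as well 26 of 33 and 0.14. RRM2, a subunit of the enzyme that makes deoxynucleotides, ran from 5.93 to 8.75 (median 7.14) in the CON cows and 6.73 to 8.05 (median 7.68) in the HIGH cows, the CON cows reaching beyond the HIGH cows on both sides, and differed by 0.36 (SE 0.38). MCM4 and MCM5, subunits of the replicative helicase, differed by 0.27 (95% interval -0.20 to 0.73) and 0.16 (95% interval -0.10 to 0.42). With only the 8 cows that had arrays on all 3 days all 3 turned, to -0.26 for RRM2, -0.019 for MCM4 and -0.073 for MCM5. RRM2 was 0.12 without CON replicate 4 and 0.67 without CON replicate 2, and MCM4 0.14 without HIGH replicate 5 and 0.45 without CON replicate 2. Of extracellular matrix genes 18 of 22 measured members were higher in HIGH, with a median of 0.09, and 16 of 22 with a median of 0.03 without CON replicate 6. Without HIGH replicate 2 as well there were 19 of 22, with a median of 0.07. COL5A2, a fibrillar collagen chain, ran from 4.35 to 5.00 (median 4.78) in the CON cows and 4.78 to 5.34 (median 5.05) in the HIGH cows and differed by 0.31 (95% interval 0.04 to 0.58). TIMP3, an inhibitor of matrix proteases, ran from 5.57 to 6.43 (median 5.80) in the CON cows and 5.96 to 6.42 (median 6.28) in the HIGH cows and differed by 0.31 (95% interval 0.00 to 0.61). Markers of stellate cells and fibroblasts, some of which stand on the matrix list too, also had more higher than lower HIGH means: 12 of 17 measured members were higher in HIGH (median 0.09, 0.01 without CON replicate 6, and 0.08 without both arrays). Their mean level per array was 6.58 to 7.22 in CON and 6.77 to 7.56 in HIGH, and their part in the matrix values was not tested. In such bulk tissue, fewer cells of a type and less RNA per cell cannot be told apart.

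Most of the remaining lists lay near the median of all genes. Oxidative phosphorylation had 30 of 54 genes higher (median 0.01), and all 54 intervals lay inside 1.5-fold. The same held for all 43 cytosolic ribosomal protein genes, of which 30 were higher (median 0.02), and for the 19 citric acid cycle genes. Of 17 endoplasmic reticulum stress genes 8 were higher at 9 d (median -0.02), compared with 0 of 17 at -8 d (median -0.38). For PDIA4, a disulphide isomerase of that list, the diet difference was -0.38 at -8 d, 0.28 at 1 d and 0.17 at 9 d, and for the chaperone CALR it was -0.41 at -8 d, 0.15 at 1 d and 0.11 at 9 d. Neither diet by time difference between 9 d and -8 d passed (limma adjusted p = 1.00 for both). Of 22 fatty acid oxidation genes, 3 were higher in HIGH at 1 d (median -0.21), against 14 at 9 d. Over all 9155 genes, 4401 were higher at -8 d, 4611 at 1 d and 5256 at 9 d. Other lists moved between days as well. Cytosolic ribosomal proteins had 6 of 43 higher at -8 d and 41 at 1 d, and oxidative phosphorylation had 11 of 54 at -8 d and 30 at 1 d. Urea cycle and amino acid genes had 17 of 30 higher (median 0.02). GNMT, which uses up surplus methyl groups, ran from 6.38 to 7.31 (median 6.84) in the CON cows and 6.82 to 8.60 (median 7.17) in the HIGH cows with HIGH replicate 1 above all others, and differed by 0.50 (95% interval -0.11 to 1.11), or by 0.26 without that cow. With all cows, a second probe set of GNMT gave 0.81. Of the xenobiotic metabolism list 17 of 29 measured members were higher (median 0.01).

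**Figure D3:**
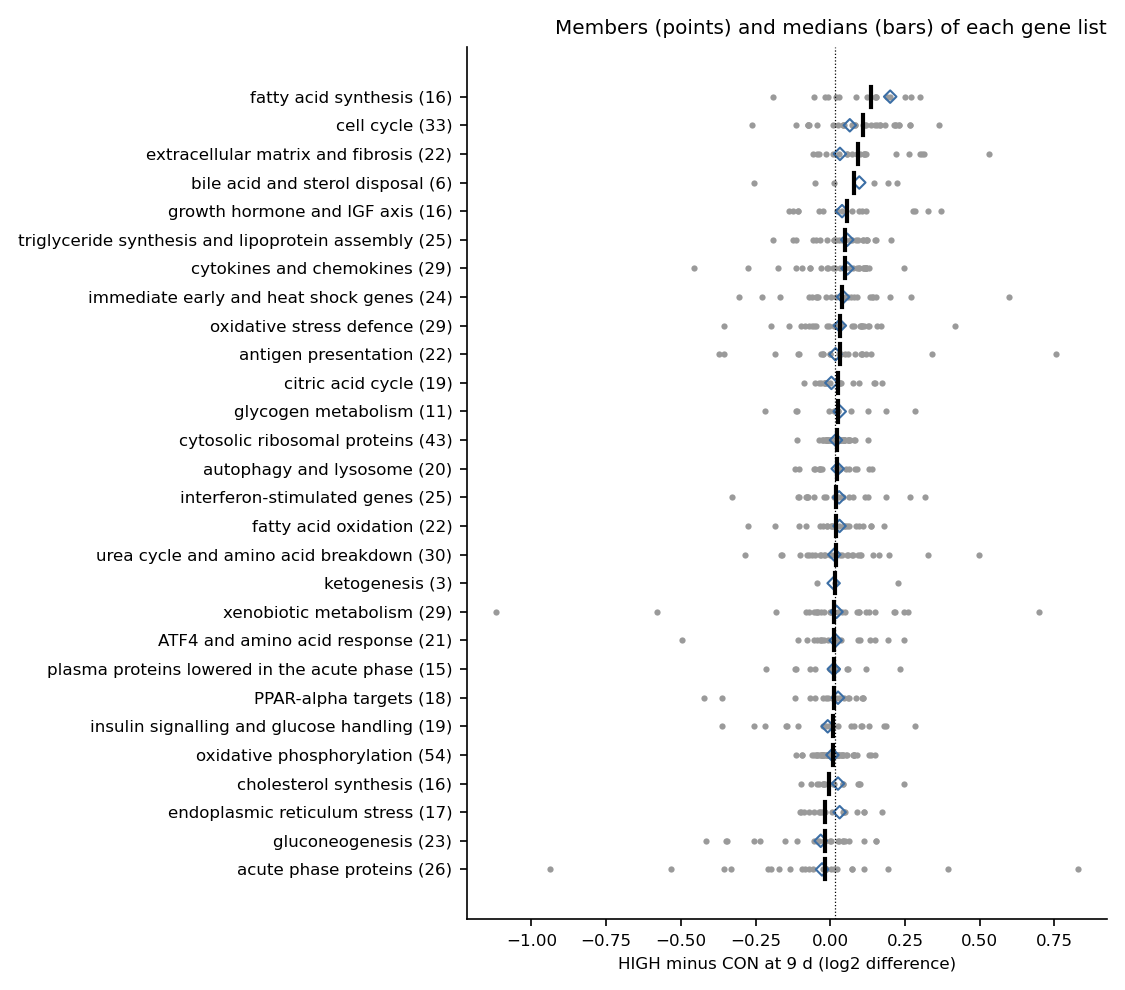
Diet difference at 9 d (HIGH minus CON, log2, x axis) of the measured members (grey points; number in brackets) of 28 pathway lists (y axis), with black bars for the medians, blue diamonds for the medians without CON replicate 6 and a dotted line for the median of all genes (0.02). With all arrays, fatty acid synthesis has the highest median (0.14, or 0.20 without that array), and most medians lie within 0.05 of the line.

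Over all 34 measured genes of the list of energy, growth hormone and acute phase genes that is named throughout, 16 had higher and 18 lower HIGH means. The size of the difference was under 0.2 for 30 of them, with a median of 0.11. For 23 of the 34 the 95% interval lay inside 1.5-fold, and for 32 inside 2-fold. The values of the 6 HIGH and 6 CON cows overlapped for all 34.

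Groups without any overlap were rare: 17 of 9155 genes (0.186%), of which 13 had all HIGH cows above all CON cows (0.142%) and 4 had them below (0.0437%). Among so many genes some separate completely with no diet difference anywhere, and the count was not tested against that number. The values of these genes are therefore given as a description only. The gap between the groups was at most 0.09. PRMT2, a protein arginine methyltransferase, had that gap. It ran from 4.81 to 5.22 (median 5.10) in the CON cows and 5.31 to 5.63 (median 5.42) in the HIGH cows, with a difference of 0.36 (SE 0.10) and an unadjusted limma p of 0.000836; a dimmer second probe set gave 0.02. IPO9, an importin that carries proteins into the nucleus, ran from 8.29 to 8.52 (median 8.47) in the CON cows and 8.59 to 8.66 (median 8.62) in the HIGH cows with all 6 HIGH cows close together. F2R, the thrombin receptor PAR1, was the widest of the 4 lower genes. It ran from 7.69 to 8.39 (median 7.92) in the CON cows and 7.13 to 7.64 (median 7.52) in the HIGH cows, a difference of -0.57 (SE 0.17), and its other probe sets gave -0.52 and -0.22. TEDC2, a centriole protein, had the smallest p of all genes. It ran from 6.02 to 6.41 (median 6.22) in the CON cows and 6.44 to 6.73 (median 6.53) in the HIGH cows, a difference of 0.34 (SE 0.08) with an unadjusted limma p of 0.000167, while its second probe set gave 0.07. BLOC1S6, needed to form lysosome-related organelles, ran from 8.67 to 9.27 (median 9.01) in the CON cows and 9.30 to 9.41 (median 9.38) in the HIGH cows. Its HIGH cows were close together above a wide spread of CON cows, and its second probe set differed alike, by 0.47. Gaps of 0.03 or 0.04 were also found in HTR2C (0.17), GRWD1 (0.21), PHYKPL (0.27), CDK10 (0.22) and HSPB1 (0.14), and STAT5B had one of 0.07. Second probe sets gave -0.0083 for CDK10, 0.16 for GRWD1, 0.025 for HTR2C and 0.027 for HSPB1. HTR2C was dim, at 3.26 to 3.42 in the CON cows and 3.46 to 3.57 in the HIGH cows. With CLDN10 (-0.23), 5 genes named after their values had been seen completed the 17, namely SCNM1 (0.12), DLL4 (0.14), TMEM204 (0.16), USP37 (-0.26) and DYRK1A (-0.10). The second probe set of USP37 gave -0.065. With fewer cows fewer groups overlap: the count was 24 to 44 when 1 cow at a time was left out, and 67 without CON replicate 6 and HIGH replicate 2.

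**Figure D4:**
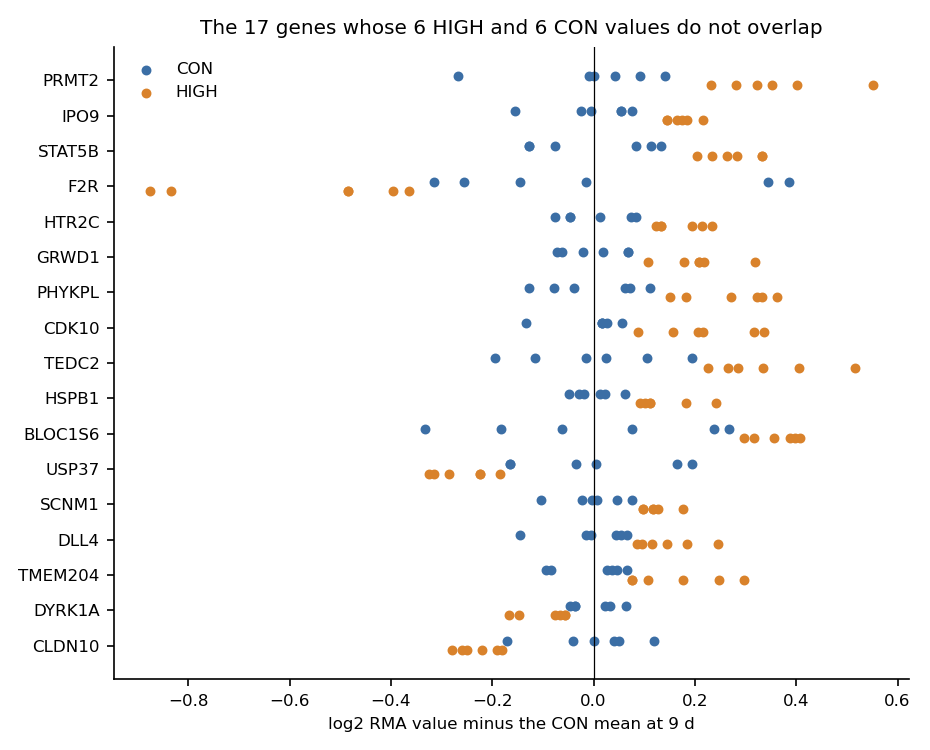
Levels at 9 d relative to the CON mean (log2, x axis) of the 17 genes whose HIGH and CON values do not overlap (y axis), one point per cow, CON in blue and HIGH in orange. The gap is 0.09 for PRMT2 at the top and 0.01 for CLDN10 at the bottom, and F2R, USP37, DYRK1A and CLDN10 are lower in HIGH.

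Other genes with small p overlapped between the diets. On the higher side, EXOSC6, a subunit of the RNA exosome, ran from 7.85 to 8.25 (median 8.09) in the CON cows and 8.25 to 8.51 (median 8.35) in the HIGH cows; the lowest HIGH value equalled the highest CON value, and the difference was 0.30 (SE 0.08), with 0.12 in a second probe set. PTPMT1, a mitochondrial phosphatase of cardiolipin synthesis, differed by 0.30 (SE 0.08). SLC17A9, which loads nucleotides into vesicles, ran from 7.28 to 8.25 (median 7.43) in the CON cows and 7.98 to 9.00 (median 8.49) in the HIGH cows: 4 CON cows lay below every HIGH cow and CON replicates 2 and 6 above the lowest, with a difference of 0.83 (SE 0.23). GSTT1, a glutathione transferase, ran from 10.55 to 11.37 (median 10.84) in the CON cows and 10.88 to 12.18 (median 11.55) in the HIGH cows and differed by 0.70 (SE 0.20). The transcription factor IRF2 and the adaptor subunit AP3S1 differed by 0.33 and 0.40, and a dimmer probe set of IRF2 gave -0.11. Completing the 15 with the smallest p on this side, METTL21E, PAG15, TBX19, PDYN and SMTN differed by 0.19 to 0.44, the first 4 of them dim, at levels below 4 in all 12 cows. A second probe set of METTL21E gave -0.01. On the lower side, FCN1, a ficolin of the lectin complement pathway, ran from 5.60 to 6.41 (median 5.82) in the CON cows and 4.96 to 5.92 (median 5.25) in the HIGH cows and differed by -0.57 (SE 0.16). FGL2, a fibrinogen-like protein, differed by -0.51, MANEAL by -0.36, and CTPS2, a CTP synthase, by -0.29 (-0.17 in its second probe set). MCEE, the epimerase on the route of propionate into the citric acid cycle, ran from 11.38 to 11.95 (median 11.70) in the CON cows and 11.21 to 11.66 (median 11.41) in the HIGH cows and differed by -0.30 (SE 0.09). ANXA13, an annexin, had the widest difference of this group. It ran from 8.95 to 11.12 (median 10.26) in the CON cows and 7.94 to 10.07 (median 9.10) in the HIGH cows and differed by -1.17 (SE 0.39). The other lower genes (LIMA1, SACM1L, SLC46A2, TRMT10B, CCNDBP1, RABL3 and EPS8) differed by -0.34 to -0.20.

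**Figure D5:**
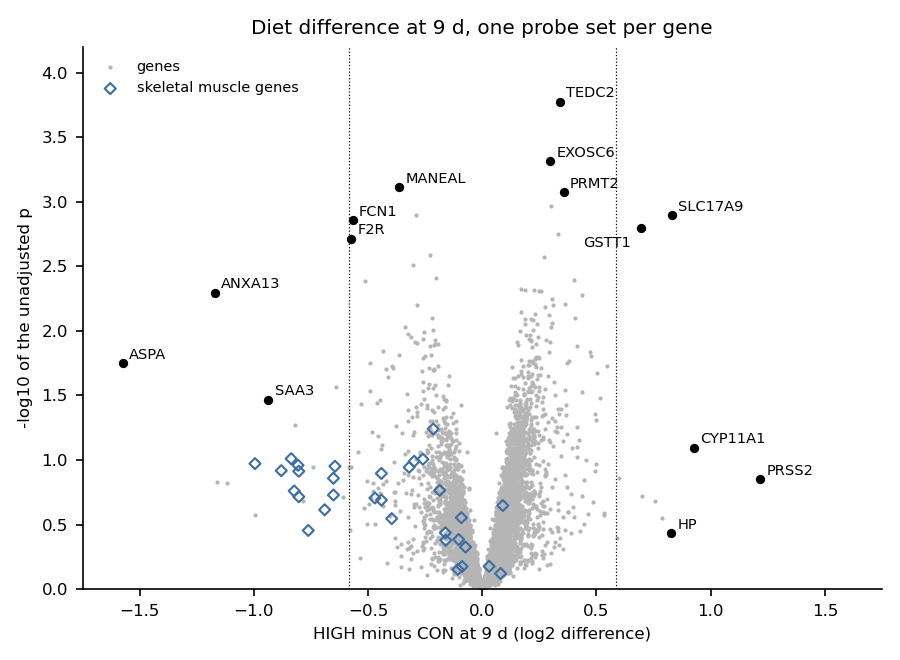
Diet difference at 9 d (HIGH minus CON, log2, x axis) against -log10 of the unadjusted limma p (y axis) for 9155 genes (grey), with skeletal muscle genes as blue diamonds and dotted lines at a 1.5-fold difference. TEDC2 has the smallest p (0.000167), none passed after adjustment, and the muscle genes form a group of lower HIGH means that rests on CON replicate 6.

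Skeletal muscle genes aside, many of the largest differences by size came from genes that varied widely from cow to cow. The genes described here were chosen after their values had been seen. ASPA, aspartoacylase, had the largest negative difference, -1.57 (95% interval -2.86 to -0.29). It ran from 4.56 to 8.14 (median 7.24) in the CON cows and 4.56 to 7.17 (median 5.04) in the HIGH cows: 5 HIGH cows read at most 5.22 and 5 CON cows at least 6.07, with 1 cow of each diet on the other side. PRSS2, a trypsinogen, had the largest positive difference, 1.22 (95% interval -0.43 to 2.86). It was near 4 in 8 cows and above 7 in 4, of which 3 were HIGH and 1 CON. CYP11A1, the side chain cleavage enzyme of steroid synthesis, ran from 6.30 to 9.36 (median 7.81) in the CON cows and 7.81 to 9.60 (median 8.84) in the HIGH cows and differed by 0.93 (95% interval -0.12 to 1.97). CYP2B6, an enzyme of drug metabolism, differed by -1.12 (95% interval -2.67 to 0.43), and IL1R2, a decoy receptor for interleukin 1, by -0.82 (95% interval -1.65 to 0.01). Their intervals were wide, and apart from ASPA the intervals of these genes included 0. ANXA13, SAA3, SLC17A9 and GSTT1, described above, were also among the largest differences, and their intervals excluded 0. These were -1.96 to -0.38 for ANXA13, -1.80 to -0.08 for SAA3, 0.35 to 1.31 for SLC17A9 and 0.29 to 1.11 for GSTT1.

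Of the 12 cows, 8 (3 CON, 5 HIGH) had arrays on all 3 days, so the days share most cows and are no independent samples, while the sets of cows compared differ in part. For F2R the difference was -0.47 at -8 d, -0.53 at 1 d and -0.57 at 9 d, and for GSTT1 it was 0.85 at -8 d, 0.55 at 1 d and 0.70 at 9 d. For BLOC1S6 it was 0.50 at -8 d, 0.30 at 1 d and 0.36 at 9 d, for PRMT2 0.17 at -8 d, 0.44 at 1 d and 0.36 at 9 d and for SLC17A9 0.42 at -8 d, 1.11 at 1 d and 0.83 at 9 d. SAA3 and ANXA13 had lower HIGH means on all 3 days, with differences of -0.94 at -8 d, -0.57 at 1 d and -0.94 at 9 d for SAA3 and of -0.66 at -8 d, -1.19 at 1 d and -1.17 at 9 d for ANXA13. In contrast, TEDC2 gave 0.04 at -8 d, -0.16 at 1 d and 0.34 at 9 d, FCN1 0.04 at -8 d, -0.24 at 1 d and -0.57 at 9 d and MANEAL -0.09 at -8 d, 0.00 at 1 d and -0.36 at 9 d. The single probe set that passed at 1 d (0.00416% of those tested) was that of SLC18A2, a vesicular monoamine transporter, with a difference of 0.61 (SE 0.10, limma adjusted p = 0.0321). With only the cows that had arrays on all 3 days, 0 probe sets passed at 1 d, SLC18A2 included, and the smallest limma adjusted p was 0.0801. At 9 d SLC18A2 differed by 0.19 (unadjusted limma p of 0.0515). At -8 d 0 probe sets passed with limma (0%), and 1025 (4.27%) had an unadjusted p under 0.05. At 1 d the latter number was 2013 (8.38%).

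Whether the diet difference itself moved between days was tested as diet by time. Between 9 d and -8 d, 0 probe sets passed with limma (0%), with 789 (3.29%) at an unadjusted p under 0.05 and a smallest adjusted p of 1.00. Between 9 d and 1 d, 0 passed (0%), with 1629 (6.78%) at an unadjusted p under 0.05 and a smallest adjusted p of 0.424. TEDC2 and ACADS were among the 5 genes with the smallest p in the latter test, with diet by time differences of 0.50 and 0.46. IPO4, RNF25 and UBN2 gave 0.49, 0.43 and -0.36. Against -8 d the 5 were HEY1 (-0.43), PDYN (0.46), CLDN10 (-0.38), CERS4 (-0.32) and COL10A1 (0.46). Of these, HEY1 (levels of 3.59 to 3.99 at 9 d), PDYN (3.21 to 3.75) and COL10A1 (2.92 to 3.67) were dim.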

How the data were processed

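RNA from liver biopsies was labelled with biotin and hybridised to Affymetrix bovine arrays, per the labels. The deposited log2 values were made by the authors with Affymetrix Expression Console 1.1 and RMA, per the submitters' processing notes; the settings are not given in the sources used here. RMA can shrink changes of very dim or very bright probe sets. Precision is limited by 6 arrays a group. The 112 array controls among 24128 probe sets stayed out. The array annotation, updated through gene identifiers, gave 13292 probe sets 1 symbol, 86 several and 10638 none here.

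All 32 arrays were fitted with limma 3.58.1 in R 4.3.3 as 6 groups (diet by day), with cow as a random block (correlation 0.138, 26 residual degrees of freedom) and a mean-variance trend. Tests were two-sided, adjusted by Benjamini-Hochberg over 24016 probe sets at 0.05. The code was tested on simulated data. Named were the 15 genes with the smallest p in each direction, a list of 41 genes (34 found), up to 4 members with the smallest p of each described list, the 5 smallest p for each diet by time test, and the 10 largest gaps between groups that do not overlap. Members and lists were chosen with earlier results of these data known; the muscle list, and leaving out its arrays, were added after the data were seen. Replicate numbers of CON and HIGH denote different cows and do not pair them. Alternatives covered the block, the trend, a level filter, centring, array weights, probe sets per gene and each replicate left out.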

Additional observations from a re-analysis of the deposited data

Results flagged for a closer look

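In a group of 6 cows, a single cow was marked where its distance to the nearest other cow exceeded Dixon's critical share of the group's range. Chance marks about 1 group in 20, and of 290 groups 19 were marked (6.55%). The 290 include the muscle means, from a list drawn up after the data had been seen, and genes chosen by their values on these arrays. The 1 in 20 therefore does not strictly apply to them. The mean of the skeletal muscle genes was 8.05 in CON replicate 6 and 5.57 in HIGH replicate 2, each above the rest of its group. MMP2 was lowest in CON replicate 6 (6.06). In HIGH replicate 2, GHR was high (10.87), and DGAT1 (8.29) and PDIA4 (10.42) were low. In HIGH replicate 1, GNMT (8.60) and PPARGC1A (9.00) were high, and CCNDBP1 (8.84) and LIPE (5.58) low. In HIGH replicate 6, DGAT2 (8.12) and CERS4 (5.66) were high. In CON replicate 2, SAA3 (11.61) and MCM4 (8.05) were high. In CON replicate 3, IFI6 (11.16) and IFI27 (11.62) were high. In CON replicate 4, CDK10 (6.55) and PRMT2 (4.81) were low, and in CON replicate 5, MVD was low (8.70).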

How the results depend on the processing

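Under every alternative run, 0 probe sets passed for diet at 9 d. The replicate numbers correlated at -0.17 to 0.03 between diets, and a fit with them as a replicate block, over the 12 arrays alone, also called 0, with 931 at an unadjusted p under 0.05; leaving the cow block out gave 0 and 797. For diet at 1 d the count of 1 became 2 without the cow block, 2 with arrays centred on their medians and 0 with only the cows that had all 3 days. The count of genes without overlap was 24 to 44 when 1 replicate was left out (fewer cows overlap less often by construction) and 67 without both arrays with muscle genes. Of 3295 values of 144 named genes over 23 alternatives, 3214 kept their direction and 81 turned, in 31 genes, none of which passed in any fit. Some alternatives, such as the fit without a trend, change only the spread and cannot turn a difference. Many of the 144 genes were named for a small p or a large gap on these same arrays, which makes a turn less likely. The count of kept directions is therefore a description only. The values that turned, as log2 differences, were the following. With only the cows that had all 3 days: ACACA (-0.046), ACADVL (-0.0060), CPT2 (-0.033), GHR (0.097), GPAM (0.041), IFI27 (-0.17), IGFBP1 (0.047), INSR (0.28), MCM4 (-0.019), MCM5 (-0.073), MTTP (-0.051), PLIN2 (-0.065), PMVK (-0.041), RRM2 (-0.26), SLC10A1 (0.011), SOCS2 (0.19) and XAF1 (-0.087). With array quality weights: ANGPTL4 (0.0065), PC (0.0073) and SLC2A2 (-0.018). Without both arrays with muscle genes: ACACA (-0.057), ANGPTL4 (0.13), BDH1 (0.018), SLC2A2 (-0.10) and SOCS2 (0.022). With the median of a gene's probe sets: ACACA (-0.033), CDCA8 (-0.030), INSR (0.067), LDHA (0.028), PPARA (0.013), SLC10A1 (0.077) and SLC2A2 (-0.033). Leaving out 1 replicate at a time gave ranges of ACACA -0.045 to 0.089, ANGPTL4 -0.16 to 0.15, BDH1 -0.089 to 0.000824, FADS2 -0.064 to 0.34, GHR -0.19 to 0.068, GPAM -0.084 to 0.034, IFI6 -0.52 to 0.27, IGFBP1 -0.27 to 0.028, LBP -0.13 to 0.43, MTTP -0.00464 to 0.11, PC -0.060 to 0.023, PLIN2 -0.079 to 0.15, PPARA -0.11 to 0.0059, PPARGC1A -0.10 to 0.044, SCD -0.0075 to 0.32, SLC2A2 -0.064 to 0.12, SOCS2 -0.25 to 0.013, UBN2 -0.035 to 0.030 and VNN1 -0.27 to 0.11. The cause was not tested. The number of cows limits the precision.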

Other observations

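Some genes varied far more among the 12 cows than between the days of a cow; they were chosen after their values had been seen, and no test was made. TRAK2, a mitochondrial transport adaptor, was 3.08 in CON replicate 1 and 3.43 in HIGH replicate 1 at 9 d and between 6.68 and 8.96 in the other 10 cows. Within any cow its arrays of different days differed by at most 0.88. PRSS2 spanned 4.10 over the cows at 9 d and at most 0.49 within a cow. Among major histocompatibility genes, whose near-identical copies the probe sets may not separate, BOLA-DQA5 was above 7 in CON replicates 1 and 3 and HIGH replicate 4 and below 4 in the other 9 cows, and it spanned at most 0.62 within a cow. BOLA-N spanned 5.64 over the cows and at most 1.29 within one. Haptoglobin (HP) showed the opposite order, with a range of 5.05 over the cows at 9 d and up to 7.72 within a cow over the days. SYCP3, a protein of the meiotic chromosome axis, was 3.64 in HIGH replicate 5 and at least 7.43 in the other 11 cows, and its arrays of different days differed by up to 3.81 within a cow.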
